A study of Homo sapiens with 12 samples.

Results

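The genes described here are *ICAM1*, *ICAM5*, *VCAM1*, *PDPN*, *ITGA5*, *ITGAV*, *ITGB1* and *CD44*, which code for receptors with which a cell holds other cells or the extracellular matrix. These 8 genes, of 33093 in the count table, were chosen by name with earlier results of the same samples known, so the values of all 8 stand as a description and their p-values are not independent support. RNA was sequenced from HEK293T cells, a human line from embryonic kidney. WT cells and *NFKB1S80A* cells were harvested without treatment or 3 h after TNFα was added at 10 ng/ml, which gave 4 groups of 3 samples. *NFKB1S80A* cells are HEK293T cells in which CRISPR/Cas9 editing replaced serine 80 of the NF-κB subunit p50 with alanine, and they were grown out from single cells. How many clones were sequenced is not given in the sources used here, so an effect of S80A cannot be told apart from a difference between a clone and the parental line. The study asked what this serine does for the expression of genes under NF-κB, and the comparisons below ask it of the adhesion receptors.

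ICAM1 and VCAM1 are immunoglobulin-superfamily receptors on which leukocytes arrest at an inflamed endothelium, ICAM1 by binding the leukocyte integrins of the beta-2 class and VCAM1 by binding integrins that hold the alpha-4 subunit. In endothelial cells the NF-κB dimers released after TNFα bind κB sites just before the start of either gene. Integrins are pairs of an alpha and a beta subunit, and ITGB1 is the most widely shared beta subunit. Its partner ITGA5 makes the classical fibronectin receptor, while ITGAV makes receptors for vitronectin, fibronectin and fibrillin with several beta subunits. CD44 is the main receptor for hyaluronan, and podoplanin (PDPN) is a mucin-like membrane protein that binds CD44, the platelet receptor CLEC2 and the ezrin and moesin linkers to actin. ICAM5, or telencephalin, is best known from neurons of the forebrain.

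TNFα raised *VCAM1* from 0 reads in both genotypes and raised *PDPN* in *NFKB1S80A* cells, while *ICAM1* and *CD44* were close to absent in every group. *PDPN* was also the member called between the genotypes after TNFα. Its samples read higher with TNFα in WT cells too, and higher in untreated *NFKB1S80A* than in untreated WT cells, though neither passed the edgeR test. The integrin subunits *ITGA5*, *ITGAV* and *ITGB1* were abundant and did not pass the test in any comparison. The interaction of genotype and TNFα was not called for the 5 members in which it could be estimated. It was called for 0 of all 14383 genes tested, so nothing is read from that.

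In GRCh38, *VCAM1* is a plus-strand gene of chromosome 1 (chr1:100719742-100739045), and *ICAM1* (chr19:10271093-10286615) and *ICAM5* (chr19:10289952-10296778) lie in the same cluster on the plus strand of chromosome 19. *PDPN* is at chr1:13583465-13617957 and *ITGAV* at chr2:186590010-186680901, both on the plus strand. *ITGA5* (chr12:54395261-54419266) and *ITGB1* (chr10:32887273-33005792) are on the minus strand, and *CD44* (chr11:35138882-35232402) is on the plus strand. The 250 bases before the RefSeq start of 4 of them are shown to set the κB-type letters of *VCAM1*, which TNFα raised from 0 reads, beside those of *ICAM1*, *ITGA5* and *PDPN*. They are written 5′ to 3′ on the strand of the gene, from GRCh38.p14, with capitals for matches to the κB consensus, to a relaxed form of it or to GGAANTTCC. The windows are chr1:100719492-100719741 for *VCAM1*, chr19:10270870-10271119 for *ICAM1*, chr12:54419267-54419516 for *ITGA5* and chr1:13583507-13583756 for *PDPN*.
VCAM1: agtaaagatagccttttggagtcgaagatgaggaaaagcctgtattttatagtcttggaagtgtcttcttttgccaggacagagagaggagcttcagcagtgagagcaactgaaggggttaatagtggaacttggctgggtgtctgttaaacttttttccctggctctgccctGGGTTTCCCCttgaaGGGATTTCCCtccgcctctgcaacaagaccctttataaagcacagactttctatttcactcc
ICAM1: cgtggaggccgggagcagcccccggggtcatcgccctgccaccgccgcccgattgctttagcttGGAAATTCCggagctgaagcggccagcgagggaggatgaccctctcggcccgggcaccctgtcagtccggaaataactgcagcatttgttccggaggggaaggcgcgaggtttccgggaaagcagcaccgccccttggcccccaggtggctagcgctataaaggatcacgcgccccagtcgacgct
ITGA5: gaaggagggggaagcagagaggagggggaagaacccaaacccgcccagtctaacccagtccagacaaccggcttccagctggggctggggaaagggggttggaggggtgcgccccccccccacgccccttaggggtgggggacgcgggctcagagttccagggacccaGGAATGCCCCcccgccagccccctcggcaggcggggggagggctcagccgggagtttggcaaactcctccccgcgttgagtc
PDPN: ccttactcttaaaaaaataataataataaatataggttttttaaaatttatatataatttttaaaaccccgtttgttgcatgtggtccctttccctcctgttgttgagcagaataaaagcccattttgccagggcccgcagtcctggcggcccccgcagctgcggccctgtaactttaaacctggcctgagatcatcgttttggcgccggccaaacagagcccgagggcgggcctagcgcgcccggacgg

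The *VCAM1* window held 2 κB-type matches side by side. The first, GGGTTTCCCC at -77 to -68 from the start (chr1:100719665-100719674), matched the relaxed form only. The second, GGGATTTCCC at -62 to -53 (chr1:100719680-100719689), matched the consensus and reads GGGAAATCCC on the other strand, and a TATAAA lay at -29 to -24. The base the study places at its -1 position, the fifth of the site, is T in the second match as written and A on its other strand. In *ICAM1*, the only match among the κB-type patterns was GGAAATTCC at -186 to -178, and a TATAAA lay at -30 to -25. The *ITGA5* window held GGAATGCCCC at -82 to -73, which matched the consensus on the strand opposite the gene as GGGGCATTCC. TGAGTCA, the letters of an AP-1 site, lay at -6 to 1, its last base just past the letters shown. No κB-type letters were found before the starts of *PDPN*, *ICAM5*, *ITGAV* or *CD44*, and *ITGB1* had 1 relaxed match after its start, at 12 to 21. RefSeq starts *PDPN* at 13583757 and the GENCODE canonical transcript at 13583832, so its window depends on the start chosen. Among 35116 promoter windows of 300 bases (250 before to 50 after the start) searched on both strands, 5.91% held the consensus, 17.4% the relaxed form, which includes every consensus match, 0.965% GGAANTTCC, 7.71% TGANTCA and 11.5% TATAAA. Such matches are letters in a window and not measured binding.

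Reads counted on genes ran from 15624878 to 20889577 per sample. The edited gene, *NFKB1*, was read in every sample, with 948 to 1091 normalised counts in untreated WT, 863 to 1039 in untreated *NFKB1S80A*, 2298 to 2540 in TNFα-treated WT and 2545 to 3198 in TNFα-treated *NFKB1S80A* samples. Counts per gene do not read the edited codon, so this does not check the genotype. Of 6 NF-κB response genes, 4 passed the test upwards with TNFα in WT and 5 in *NFKB1S80A* cells, where 0.577% and 0.966% of all tested genes did. *TRAF1* was not called in WT or *NFKB1S80A* cells (log2 0.23 and 0.10, edgeR adjusted p 0.997 and 0.904), nor was *BIRC3* in WT (1.45, adjusted p 0.283). The summed level of the 6 genes in CPM (the gene's reads scaled to the size of the library) was 52.8 to 55.3 in untreated WT and 59.1 to 63.5 in untreated *NFKB1S80A* samples, and 441 to 499 and 584 to 682 after TNFα. The 8 HEK293T lineage markers summed to 775 to 817 CPM in untreated WT, 934 to 1027 CPM in TNFα-treated WT, 632 to 798 CPM in untreated *NFKB1S80A* and 864 to 916 CPM in TNFα-treated *NFKB1S80A* samples. Within that sum *VIM* alone averaged 652 CPM over the 12 samples, where *PAX2* and *LHX1* averaged 1.22 and 1.34 CPM. With TNFα 2 of the 8 markers passed the test upwards in WT and 3 in *NFKB1S80A* cells, where 0.577% and 0.966% of all tested genes did. Another of these markers, the neurofilament gene *NEFM*, had 1774 to 2165 reads in each WT sample and 3 to 6 in each *NFKB1S80A* sample. None of 6 endothelial markers passed the filter on low counts, at a summed 0.106 to 0.468 CPM, and the leukocyte markers *PTPRC* and *CD3E* had 0 reads in every sample. Of 6 fibroblast markers 2 passed that filter, and their summed level was 14.3 to 17.4 CPM in WT and 7.27 to 8.97 CPM in *NFKB1S80A* samples, with *COL1A1* as the marker that differed; its part in the results below was not tested. Replicate 2 of untreated *NFKB1S80A* stood apart from its group. Its chi-square per gene was 38.2 and 22.4 against its replicates, where the pairs without it, over all groups, ran from 2.90 to 16.3. Values without it are given beside many, though not all, results of the members that it enters. In samples of whole cultures, fewer cells of a type and less RNA per cell cannot be told apart.

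By length, *ITGB1* was the most abundant member, with a mean over the 12 samples of 30.5 CPM per kb of transcript (28 to 33.8), followed by *PDPN* at 18.7 CPM per kb (12.2 to 26.6). *ITGAV* at 6.9 CPM per kb (5.6 to 9.08) and *ITGA5* at 6.11 CPM per kb (4.1 to 8.16) were next and overlapped, so their order was within their spread. *ICAM5* followed at 2.22 CPM per kb (1.2 to 3.63). *VCAM1* reached 0.203 ± 0.0335 CPM per kb in WT and 0.342 ± 0.151 CPM per kb in *NFKB1S80A* cells after TNFα (SD, n = 3), and *ICAM1* and *CD44* did not exceed 0.129 and 0.0539 CPM per kb in any sample. In the plot of the members by sample, only *VCAM1* has groups at 0 in all their samples.

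**Figure D1:**
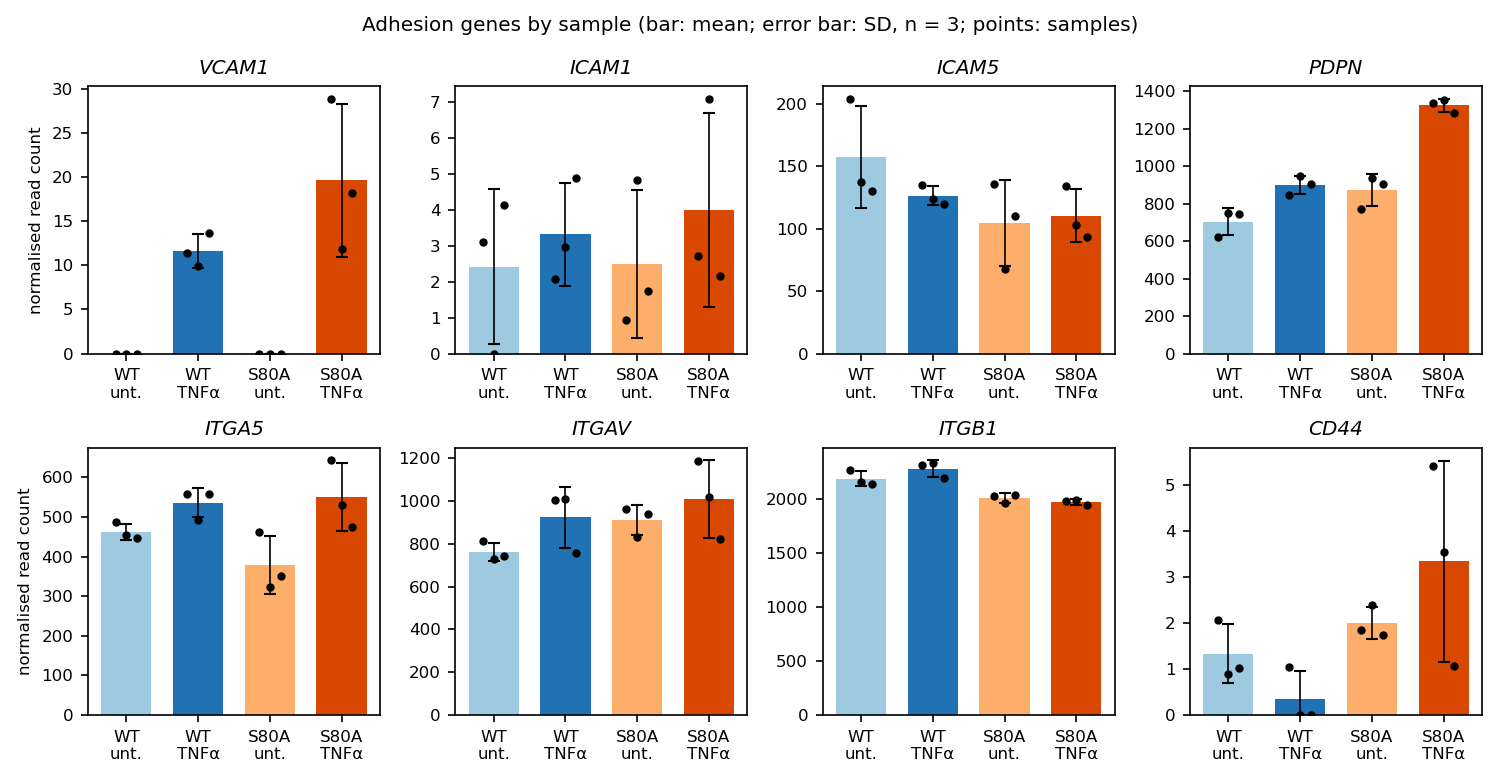
Normalised read count (y axis, from 0, its own scale for each gene) of the 8 adhesion genes in untreated and TNFα-treated WT and NFKB1S80A samples; bars are means, error bars the SD and points the 3 samples of a group. *VCAM1* is at 0 in every untreated sample, and the 3 TNFα-treated NFKB1S80A samples sit at 1284 to 1352 for *PDPN*, above all other samples.

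*VCAM1* was not read at all in untreated cells and appeared after TNFα in either genotype. The counts were 0, 0 and 0 in untreated WT and 0, 0 and 0 in untreated *NFKB1S80A* samples. After TNFα they were 11, 10 and 14 in WT and 32, 10 and 17 in *NFKB1S80A* samples. All treated samples therefore lay above all untreated ones. A count of 0 allows up to 3 reads in a library, or 0.144 to 0.192 CPM here. Against that floor, *VCAM1* was at least 3.94-fold higher with TNFα in WT cells (11.7 ± 1.93 normalised counts, SD, n = 3) and at least 6.56-fold higher in *NFKB1S80A* cells (19.7 ± 8.65, n = 3). Intervals and floors of counts cover counting error only.

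The rise of *VCAM1* passed the quasi-likelihood test of edgeR, adjusted after Benjamini-Hochberg over all 14383 genes tested, with an adjusted p of 0.0146 in WT and 0.00197 in *NFKB1S80A* cells. *VCAM1* entered the test only through its treated samples, so it had to differ between treated and untreated cells. In WT cells the call was lost without untreated replicate 2 (adjusted p 0.0552) or without TNFα-treated replicate 3 (adjusted p 0.0532). In *NFKB1S80A* cells it held in each of 12 fits that left out 1 sample, with an adjusted p of 0.00242 without the untreated replicate that stood apart. The endothelial markers given above were near 0 in the same samples.

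After TNFα, *VCAM1* was higher by a log2 of 0.78 in *NFKB1S80A* than in WT cells (SE 0.38, 95% interval -0.05 to 1.62), which did not pass the test (edgeR adjusted p 0.255). The ratio of the summed counts, 59 against 35 reads, was 1.78 with an interval from counting error of 1.15 to 2.79. Replicate 1 of the treated *NFKB1S80A* samples held 32 of the 59 reads, and the lowest samples of both genotypes had 10. Over the fits without 1 sample the log2 difference ran from 0.37 to 1.02. Whether the fold rise differed between the genotypes could not be estimated from untreated groups at 0.

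*ICAM1* stayed at the limit of detection with and without TNFα. Its counts were 3, 0 and 4 in untreated WT, 2, 3 and 5 in TNFα-treated WT, 1, 4 and 2 in untreated *NFKB1S80A* and 3, 6 and 2 in TNFα-treated *NFKB1S80A* samples. The groups overlapped throughout. The ratio of summed counts of treated to untreated samples was 1.44 (95% interval 0.494 to 4.45) in WT and 1.66 (0.586 to 5.04) in *NFKB1S80A* cells. That of *NFKB1S80A* to WT cells was 1.01 (0.303 to 3.38) untreated and 1.16 (0.449 to 3.06) with TNFα. A difference was thus not detectable at this depth, and the upper ends do not reach above 5.04-fold. *ICAM1* did not pass the filter on low counts, and without a filter its edgeR adjusted p was between 0.845 and 1 in all comparisons. The antisense transcript *ICAM4-AS1* overlaps 815 bases of its exons; the library kit marked strand, but the strand setting of the counting is not given in the sources used here, so reads of either could not be told apart.

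*ICAM1* and the next gene, *ICAM4*, were read least in their cluster, as the plot along it shows. *ICAM5*, 1 gene further on, had a mean of 2.22 CPM per kb against 0.0554 CPM per kb for *ICAM1*, and *ICAM3*, at the far side of the cluster, had 6.44 CPM per kb. *ICAM4*, between *ICAM1* and *ICAM5*, had 0.369 CPM per kb and *ICAM2*, on another chromosome, 0.00731 CPM per kb. Of the 10 genes from *MRPL4* to *CDC37* 9 were tested, and 0 passed the test with TNFα in WT (median log2 fold change -0.20) or in *NFKB1S80A* cells (median 0.09), against a median of 0.00 in size over all genes tested. At an unadjusted p under 0.05 edgeR gave 1 and 0 of the 9, and DESeq2 called 0 in either genotype, where edgeR called 0.688% and 1.26% of all tested genes; nothing is read from 0 of 9. *ICAM4* counts were 14, 20 and 12 in untreated WT and 6, 3 and 7 in untreated *NFKB1S80A* samples. It was lower by a log2 of 1.51 in the latter, written as NFKB1S80A minus WT (-1.51, SE 0.41, edgeR adjusted p 0.0419), a call that failed with DESeq2 (adjusted p 0.0849) and in 8 of 12 fits without 1 sample (adjusted p up to 0.182), that without the untreated replicate that stood apart among them (-1.34, adjusted p 0.0907).

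**Figure D2:**
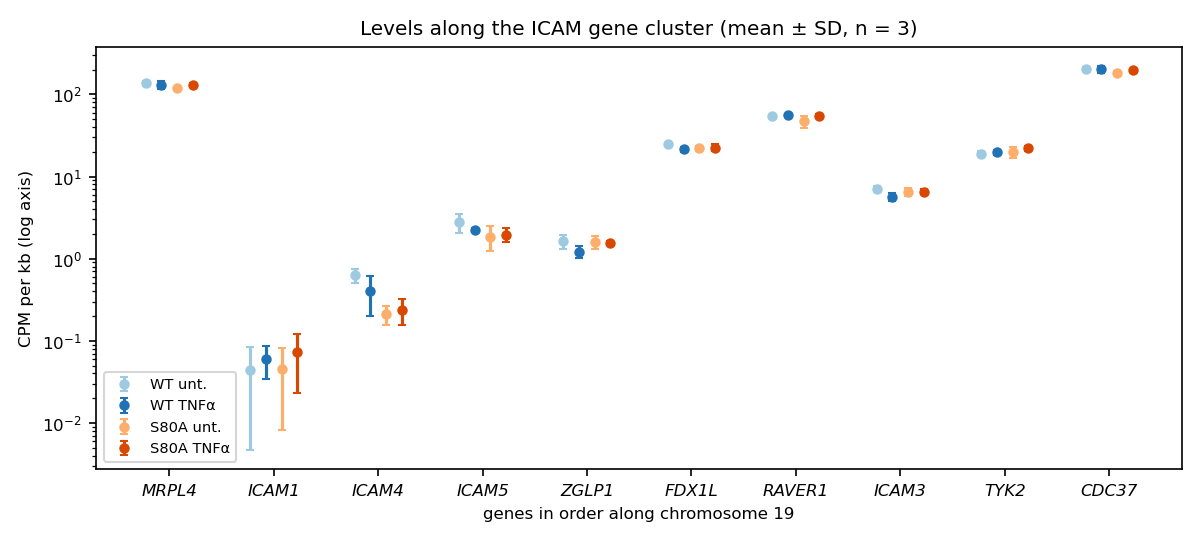
Level in CPM per kb of transcript (y axis, log scale; mean ± SD, n = 3) of 10 genes in their order along chromosome 19 (x axis, not to scale), for the 4 groups. *ICAM1* and *ICAM4* sit lowest in all groups, while genes on either side reach over 100 CPM per kb.

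*ICAM5* was the intercellular adhesion molecule among the members with enough reads to test, and it was not called in any comparison, except between the untreated genotypes with the replicate number as a block (adjusted p 0.0475). Its normalised counts were 204, 137 and 130 in untreated WT and 135, 124 and 120 in TNFα-treated WT samples. In *NFKB1S80A* cells they were 136, 67.3 and 110 untreated and 134, 103 and 93.4 with TNFα. The log2 difference of *NFKB1S80A* from WT was -0.57 untreated (SE 0.23, edgeR adjusted p 0.178) and -0.20 with TNFα (SE 0.23, adjusted p 0.68). The untreated groups overlapped, and the lowest value, 67.3, belongs to the replicate that stood apart, without which the untreated difference was -0.34 (adjusted p 0.347). The responses to TNFα were -0.31 in WT and 0.06 in *NFKB1S80A* cells (adjusted p 0.997 and 0.954). Without untreated WT replicate 1, the sample at 204, the response in WT was -0.075, and without the untreated replicate that stood apart the response in *NFKB1S80A* cells was -0.16 (adjusted p 0.918).

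*PDPN* rose with TNFα in *NFKB1S80A* cells and was higher there than in WT cells after TNFα. The normalised counts were 620, 751 and 743 in untreated WT and 849, 948 and 905 in TNFα-treated WT samples. In *NFKB1S80A* cells they were 774, 938 and 905 untreated and 1338, 1352 and 1284 with TNFα. The TNFα-treated *NFKB1S80A* samples lay above all 9 other samples, and untreated *NFKB1S80A* and treated WT samples overlapped. The untreated *NFKB1S80A* samples, at 774 to 938, all lay above the untreated WT samples, at 620 to 751.

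In *NFKB1S80A* cells the log2 rise of *PDPN* was 0.60 (SE 0.10, 95% interval 0.40 to 0.81, edgeR adjusted p 0.00317), or 1.52-fold. In WT cells it was 0.35 (SE 0.10, interval 0.15 to 0.56), 1.28-fold, and although the 3 treated samples lay above the 3 untreated ones it did not pass the test (adjusted p 0.196). The *NFKB1S80A* samples exceeded WT by a log2 of 0.56 after TNFα (SE 0.10, adjusted p 0.0033) and by 0.31 untreated (SE 0.10, adjusted p 0.0783). The response itself was not shown to differ between the genotypes, with an interaction of 0.25 (interval -0.04 to 0.54, adjusted p 0.911). Both calls held in all 7 alternatives and in each of the 12 fits without 1 sample, with an adjusted p of at most 0.0345 in *NFKB1S80A* cells and 0.0206 between the treated genotypes. Over the fits without 1 sample the log2 rise in *NFKB1S80A* cells ran from 0.52 to 0.65. The untreated difference was called by DESeq2 (adjusted p 0.0412), with the replicate block (0.0327) and without untreated *NFKB1S80A* replicate 1 (log2 0.39, adjusted p 0.0353), and was 0.26 without replicate 2 (adjusted p 0.144).

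**Figure D3:**
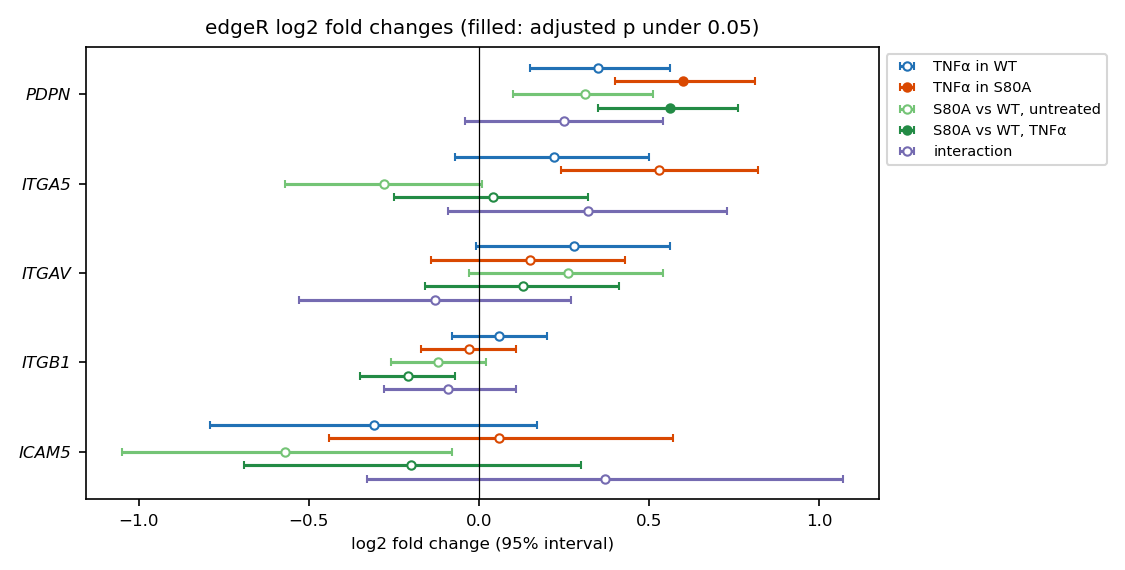
Log2 fold change (x axis) with its 95% interval for the 5 members with reads in every sample, for TNFα in each genotype, NFKB1S80A against WT before and after TNFα, and for the interaction; filled points have an edgeR adjusted p under 0.05. The 2 filled points belong to *PDPN*, at 0.60 for TNFα in NFKB1S80A cells and 0.56 for NFKB1S80A against WT after TNFα.

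The genes whose profile over the 12 samples was most like that of *PDPN* were *DUSP10*, *RBM38*, *TMPO-AS1*, *LARP6* and *IRGQ*. Their root mean square difference from *PDPN* in centred log2 CPM was 0.131 to 0.154, where the median over all tested genes was 0.39. *DUSP10* codes for a phosphatase of stress-activated MAP kinases, and *RBM38* and *LARP6* for RNA-binding proteins. *RBM38* rose by a log2 of 0.39 in WT and 0.56 in *NFKB1S80A* cells (edgeR adjusted p 0.033 and 0.00111), and *LARP6* by 0.59 in *NFKB1S80A* cells (adjusted p 0.00727). *IRGQ* rose by 0.42 in *NFKB1S80A* cells (adjusted p 0.0343), and neither *LARP6* nor *IRGQ* was called in WT (0.0944 and 0.667). *DUSP10*, the closest, was not called with TNFα in WT or *NFKB1S80A* cells (0.621 and 0.478), nor was *TMPO-AS1* (0.997 and 0.47). After TNFα *RBM38*, *LARP6* and *IRGQ*, like *PDPN*, were higher in *NFKB1S80A* than in WT cells, by 0.29, 0.36 and 0.35 (edgeR adjusted p 0.0381, 0.0458 and 0.0331). *DUSP10* and *TMPO-AS1* were not called there (0.36 and 0.45, adjusted p 0.186 and 0.0653). These genes were picked for their likeness in the same samples, so their values add no evidence for *PDPN*.

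*CD44*, the hyaluronan receptor that PDPN binds, was read in no sample more than 6 times. Its counts were 2, 1 and 1 in untreated WT, 1, 0 and 0 in TNFα-treated WT, 2, 2 and 2 in untreated *NFKB1S80A* and 6, 3 and 1 in TNFα-treated *NFKB1S80A* samples. The treated genotypes held 10 and 1 summed reads, a ratio of 10.6 with a counting interval of 1.51 to 459, and touched at 1 read. Without a filter on low counts the edgeR adjusted p of that difference was 0.144. For the other 3 pairs of groups the ratio was 0.252 for TNFα in WT (0.00511 to 2.54), 1.76 for TNFα in *NFKB1S80A* (0.578 to 5.88) and 1.52 between the untreated genotypes (0.36 to 7.31). Levels of the other genes of that axis ranged widely, with *EZR* at 70.7, *MSN* at 60 and *RDX* at 37.8 CPM per kb for the linkers ezrin, moesin and radixin, *HYAL2*, a hyaluronidase, at 35.6 and *HMMR*, another hyaluronan receptor, at 26.4 CPM per kb. The hyaluronan synthases were low, with *HAS3* at 0.917 and *HAS2* at 0.119 CPM per kb and *HAS1* at 0 reads. The hyaluronan receptor *LYVE1* had at most 1 read in a sample and the hyaluronidase *HYAL1* 3 to 9, and neither passed the filter on low counts. *MMP14*, a membrane protease that cleaves CD44, was read at 0.281 CPM per kb (0.188 to 0.361).

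*ITGA5* read higher after TNFα in all samples of either genotype, by amounts that did not pass the test. Its normalised counts were 486, 454 and 446 in untreated WT and 558, 493 and 557 in TNFα-treated WT samples, 462, 323 and 352 in untreated *NFKB1S80A* and 643, 530 and 475 in TNFα-treated *NFKB1S80A* samples. The treated samples lay above the untreated ones within either genotype, by 475 against 462 at the closest in *NFKB1S80A* cells. The log2 change was 0.22 in WT (SE 0.13, edgeR adjusted p 0.994) and 0.53 in *NFKB1S80A* cells (SE 0.14, interval 0.24 to 0.82, adjusted p 0.0955). The latter was called by DESeq2 (adjusted p 0.0158), without a filter on low counts (0.024), with the replicate block (0.0198) and without untreated *NFKB1S80A* replicate 1 (log2 0.70, adjusted p 0.0103), and was 0.43 without replicate 2 (adjusted p 0.244). Between the genotypes the difference was -0.28 untreated (SE 0.14, adjusted p 0.277; -0.18 without replicate 2, adjusted p 0.488) and 0.04 with TNFα (SE 0.13, adjusted p 0.908), and the interaction was 0.32 (interval -0.09 to 0.73, adjusted p 0.911).

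*MAFG*, *ARRB1*, *CDC42EP1* and *SPATA2* were among the 5 genes with profiles most like *ITGA5*, with a root mean square difference of 0.093 to 0.108 in centred log2 CPM where the median of all tested genes was 0.33. *ARRB1*, an arrestin, rose by a log2 of 0.51 with TNFα in *NFKB1S80A* cells (edgeR adjusted p 0.0282), and *CDC42EP1*, a Cdc42 effector, by 0.42 (0.0343). *MAFG*, the closest, and *SPATA2* were not called there, each at a log2 of 0.36 (adjusted p 0.387 and 0.198). These genes too were chosen for likeness to *ITGA5* in these samples.

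*ITGAV* had normalised counts of 811, 731 and 744 in untreated WT, 1004, 1009 and 758 in TNFα-treated WT, 960, 830 and 939 in untreated *NFKB1S80A* and 1185, 1017 and 820 in TNFα-treated *NFKB1S80A* samples. Treated and untreated samples overlapped in either genotype. The log2 changes with TNFα were 0.28 (SE 0.13, edgeR adjusted p 0.867) in WT and 0.15 (SE 0.13, adjusted p 0.771) in *NFKB1S80A* cells, the latter 0.083 without the untreated replicate that stood apart (adjusted p 0.935). The genotypes differed by 0.26 untreated (adjusted p 0.312), where the *NFKB1S80A* samples all lay above WT (0.32 without that replicate, adjusted p 0.184), and by 0.13 with TNFα (adjusted p 0.632).

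*ITGB1*, the shared beta subunit, was the integrin subunit read most, per length, of all tested. Its normalised counts were 2269, 2160 and 2138 in untreated WT, 2313, 2338 and 2192 in TNFα-treated WT, 2032, 1961 and 2040 in untreated *NFKB1S80A* and 1985, 1994 and 1941 in TNFα-treated *NFKB1S80A* samples. Every *NFKB1S80A* sample lay below every WT sample. The log2 difference of *NFKB1S80A* from WT was -0.12 untreated (SE 0.06, interval -0.26 to 0.02, edgeR adjusted p 0.319; -0.10 without replicate 2) and -0.21 with TNFα (SE 0.06, interval -0.35 to -0.07, adjusted p 0.0656). The latter was called by DESeq2 (adjusted p 0.0224), without TNFα-treated WT replicate 3 (0.0435) and without untreated *NFKB1S80A* replicate 2 (0.0355). TNFα changed it by 0.06 in WT (interval -0.08 to 0.20) and -0.03 in *NFKB1S80A* cells (interval -0.17 to 0.11).

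Per length, *ITGA5* and *ITGAV* were at a ratio of 1 ± 0.0205 in untreated WT (SD, n = 3), 0.983 ± 0.211 in TNFα-treated WT, 0.687 ± 0.0963 in untreated *NFKB1S80A* (0.709 without replicate 2) and 0.907 ± 0.0494 in TNFα-treated *NFKB1S80A* samples. Both were read at 0.165 to 0.271 of the level of *ITGB1* as group means. Among all integrin subunits in the plot of their levels, *ITGB1* was followed by *ITGAE* at 9.94, *ITGAV* at 6.9, *ITGB5* at 6.72, *ITGA5* at 6.11, *ITGA6* at 5.15 and *ITGA7* at 3.23 CPM per kb. *ITGAE* codes for the partner of beta-7, and *ITGB7* was read at 0.0814 CPM per kb and did not pass the filter. *ITGB5* is the partner of ITGAV in a vitronectin receptor, and *ITGA6* makes laminin receptors. Of the receptors for ICAM1 and VCAM1, *ITGAL*, *ITGAM* and *ITGAX* did not pass the filter on low counts, and *ITGA4* was read at 0.851 CPM per kb (0.574 to 1.21). With TNFα edgeR called 0 of 11 further alpha and 0 of 4 further beta subunits in either genotype, with 1 of these 15 at an unadjusted p under 0.05 in each genotype and 0 called by DESeq2, where edgeR called 0.688% of all tested genes in WT and 1.26% in *NFKB1S80A* cells. Of the same 15 *ITGA7* alone was called between the genotypes, after TNFα, by 0.66 (SE 0.19, edgeR adjusted p 0.0479), where 7.36% of all tested genes were, a call lost with total counts in place of TMM scaling (0.0595), with at least 10 counts in every sample (0.0534) and in 9 of 12 fits without 1 sample (up to 0.184).

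**Figure D4:**
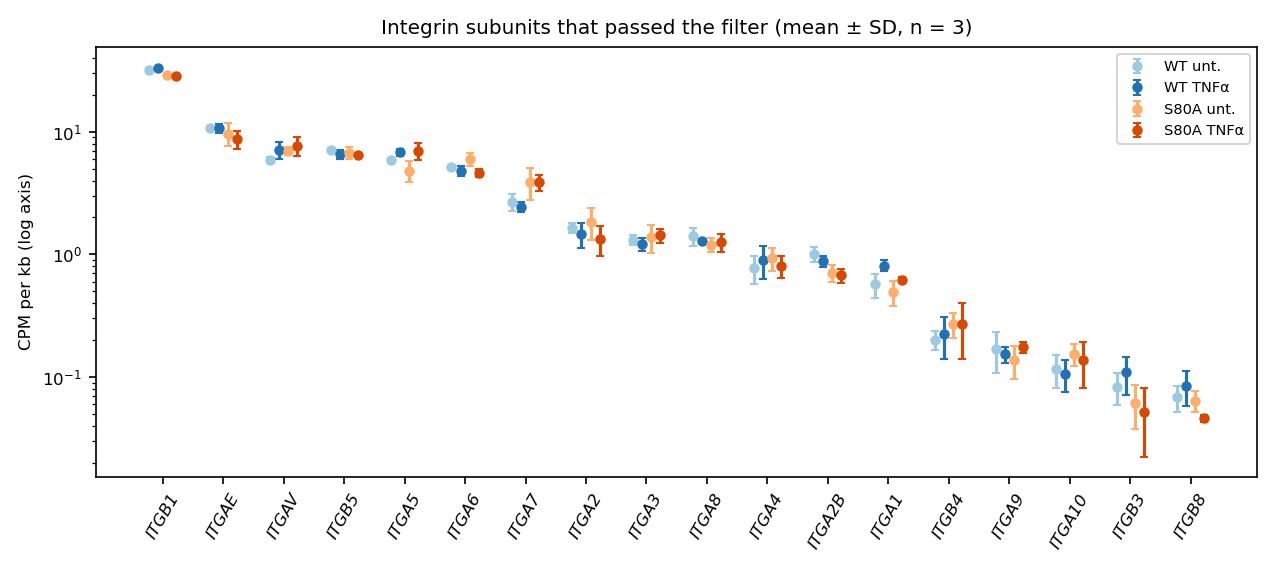
Level in CPM per kb of transcript (y axis, log scale; mean ± SD, n = 3) of the integrin subunits that passed the filter on low counts, ordered by their mean, in the 4 groups. The group means of *ITGB1* stand at 28.5 to 32.9 CPM per kb, above those of *ITGAE* at 8.66 to 10.8 CPM per kb. The group means of *ITGAV*, *ITGB5*, *ITGA5* and *ITGA6* reach 7.72, 7.09, 6.97 and 5.99 CPM per kb.

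Counted together, 1 of the 6 members tested was called with TNFα in WT cells (*VCAM1*, up), where 0.688% of all tested genes were called, 0.577% up and 0.111% down. With TNFα in *NFKB1S80A* cells 2 of 6 were called (*VCAM1* and *PDPN*, up), against 1.26% of all genes, 0.966% up and 0.292% down. Between untreated genotypes edgeR called 0 of the 5 with untreated reads, with 2 at an unadjusted p under 0.05 and 1 called by DESeq2, against 6.26% of all genes, 2.05% up and 4.21% down. After TNFα 1 of 6 was called (*PDPN*, higher in *NFKB1S80A* cells), against 7.36% of all genes, 2.92% up and 4.44% down. For the interaction edgeR called 0 of the same 5 members and 0% of all genes, with 0 members and 520 genes at an unadjusted p under 0.05 and 0 called by DESeq2. The median log2 fold change of these 5 members, *VCAM1* left out, was 0.22, 0.15, -0.12, 0.04 and 0.25 in these 5 comparisons, and that of all genes was within 0.01 of 0. Since the 8 genes were chosen with these contrasts known and *VCAM1* entered through its treated samples, nothing is read from these counts. Comparisons that share a group of samples are not independent.

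The wider adhesion lists held 129 genes, the 8 included, of which 100 were tested. These lists too were chosen with earlier results of the same samples known, and *VCAM1* entered through its treated samples alone. Nothing is therefore read from the counts of called genes given here and between the genotypes below. With TNFα 3 of 100 rose and 0 fell in WT cells, and 5 rose and 0 fell in *NFKB1S80A* cells, with medians of 0.00 in size and 0.06, where 0.577% and 0.966% of all tested genes rose and 0.111% and 0.292% fell. Besides *VCAM1* and *PDPN* these were *TNC*, *IGSF3* and, in *NFKB1S80A* cells, *ZYX*. *TNC*, the matrix protein tenascin-C, had counts of 8, 11 and 7 in untreated WT, 48, 35 and 52 in TNFα-treated WT, 41, 10 and 32 in untreated *NFKB1S80A* and 143, 82 and 61 in TNFα-treated *NFKB1S80A* samples. It rose by a log2 of 2.39 (SE 0.41, edgeR adjusted p 0.00983) in WT and 1.87 (SE 0.31, adjusted p 0.00516) in *NFKB1S80A* cells. The WT call was lost without untreated replicate 1 or replicate 3, at an adjusted p of up to 0.0621. *IGSF3*, an immunoglobulin-superfamily membrane protein, rose by 0.63 in WT (adjusted p 0.034, lost with total counts, 0.0856, and in 8 of 12 fits without 1 sample, up to 0.197) and by 0.85 in *NFKB1S80A* cells (adjusted p 0.00188, kept in all 12). *ZYX*, the focal adhesion protein zyxin, rose by 0.37 in *NFKB1S80A* cells (adjusted p 0.0289, lost in 9 of 12 such fits, up to 0.124). A fit of only the 6 *NFKB1S80A* samples did not call *TNC*, *IGSF3* or *ZYX* (0.0903, 0.0644 and 0.17). Without the untreated replicate that stood apart, *TNC* and *IGSF3* rose by 1.57 and 0.72 in *NFKB1S80A* cells (adjusted p 0.00728 and 0.00196), and *ZYX* was not called (0.32, adjusted p 0.0847). The selectins and their ligand, 4 genes, did not pass the filter on low counts, so their response was not tested.

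Between the genotypes 6 adhesion genes were higher and 9 lower in untreated *NFKB1S80A* cells of 100 tested (median 0.03), where 2.05% of all tested genes were higher and 4.21% lower, and 10 were higher and 5 lower after TNFα (median 0.08), where 2.92% were higher and 4.44% lower. Among the lower genes is *NCAM2*, which passed the filter on low counts only through its WT samples. The change farthest from 0 among the 98 adhesion genes plotted was that of *ESRP2*, an epithelial splicing regulator for which *CD44* transcripts are a known target. Its counts were 239, 234 and 189 in untreated WT, 184, 160 and 221 in TNFα-treated WT, 40, 15 and 17 in untreated *NFKB1S80A* and 29, 22 and 17 in TNFα-treated *NFKB1S80A* samples. The log2 difference was -3.20 untreated (SE 0.25, edgeR adjusted p 3.06e-06) and -2.99 with TNFα (SE 0.26, adjusted p 7.8e-06), and it held in every alternative and every fit without 1 sample. Its paralogue *ESRP1* had 2 reads in all.

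Among matrix ligands of integrins, *FBN1* (fibrillin, bound by ITGA5 and ITGAV receptors; -1.36 and -1.17) and *COL1A1* (-1.20 and -1.03) were lower in *NFKB1S80A* cells untreated and with TNFα, and *LAMA4* (0.63 and 0.79) was higher. These 3 held in all alternatives and fits, with an edgeR adjusted p of at most 0.0348 for *LAMA4*. *LAMB1*, a laminin beta chain, was lower untreated (-0.46, edgeR adjusted p 0.00139), in all alternatives and fits, and after TNFα (-0.31, adjusted p 0.0146), the latter a call lost without treated WT replicate 1 or treated *NFKB1S80A* replicate 1 (adjusted p up to 0.0755). *LAMA3* was higher untreated (0.72, lost in 4 of 12 fits without 1 sample, adjusted p up to 0.108) and with TNFα (0.81, lost without treated WT replicate 2, adjusted p 0.0648). *FN1*, the main ligand of the receptor that ITGA5 forms, had normalised means of 542 ± 83.5, 601 ± 52.7, 523 ± 127 and 633 ± 87 in untreated WT, TNFα-treated WT, untreated *NFKB1S80A* and TNFα-treated *NFKB1S80A* samples (SD, n = 3), within each other's spread. *VTN* and *THBS1* did not pass the filter on low counts. *TNC* was higher in *NFKB1S80A* cells by 1.64 untreated and 1.12 with TNFα (adjusted p 0.0416 and 0.0332), lost in 8 and 4 of 12 fits without 1 sample (up to 0.141 and 0.155). In untreated cells *LAMA1* (-0.75), *COL4A1* (-0.47) and the tensin *TNS3* (-0.67) were also lower, with edgeR adjusted p of 0.0473, 0.0158 and 0.0178. The call of *LAMA1* was lost in 10 of 12 fits without 1 sample (up to 0.183), and those of *COL4A1* and *TNS3* without untreated WT replicate 1 or 2 (up to 0.0725 and 0.09). A fit of only the 6 untreated samples ended the untreated calls of *TNC*, *LAMA3*, *LAMA1* and *COL4A1* (adjusted p 0.0794, 0.0817, 0.0975 and 0.0846), and total counts or at least 10 counts in every sample that of *LAMA1* (0.0765 and 0.0524). Without the untreated replicate that stood apart, *LAMA1* was not called (-0.55, adjusted p 0.0909), while *FBN1*, *COL4A1* and *TNS3* were, at -1.21, -0.34 and -0.58 (adjusted p 0.0024, 0.0198 and 0.0428).

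Of the immunoglobulin-superfamily receptors of neural type, *NCAM1* was higher in *NFKB1S80A* cells by 0.88 untreated and 0.75 with TNFα (edgeR adjusted p 0.00042 and 0.00151) in all alternatives and fits. *CADM4* was higher by 0.56 untreated (adjusted p 0.00822) and 0.55 with TNFα (adjusted p 0.00937), and *NRCAM* by 0.55 untreated (adjusted p 0.0446, lost with total counts, 0.0552, with at least 10 counts in every sample, 0.0504, and in 7 of 12 fits, up to 0.172). Without the untreated replicate that stood apart, *CADM4* and *NRCAM* were higher by 0.56 and 0.61 untreated (adjusted p 0.0117 and 0.0274). *L1CAM*, a neural adhesion receptor that binds integrins through its own RGD motif, was higher by 1.91 after TNFα (SE 0.40, adjusted p 0.0101), with counts of 8, 8 and 13 in WT and 57, 28 and 22 in *NFKB1S80A* samples; the call was lost without treated WT replicate 2 or treated *NFKB1S80A* replicate 1 (adjusted p up to 0.0611). *NCAM2*, named after its values were seen, had 15 to 29 reads in each WT sample and 0 to 2 in each *NFKB1S80A* sample. In the plot of both genotype comparisons, *PDPN* lies at 0.31 and 0.56, where *CADM4* lies at 0.56 and 0.55 and *NRCAM* at 0.55 and 0.33. The fibroblast marker *COL1A1* is itself in the ligand list, and the HEK293T lineage marker *NEFM* was lower in *NFKB1S80A* cells (log2 -8.71 untreated and -9.05 with TNFα, edgeR adjusted p 5.52e-13 and 4.3e-13), where 3 to 6 reads were left in each sample; their part in the adhesion changes was not tested.

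**Figure D5:**
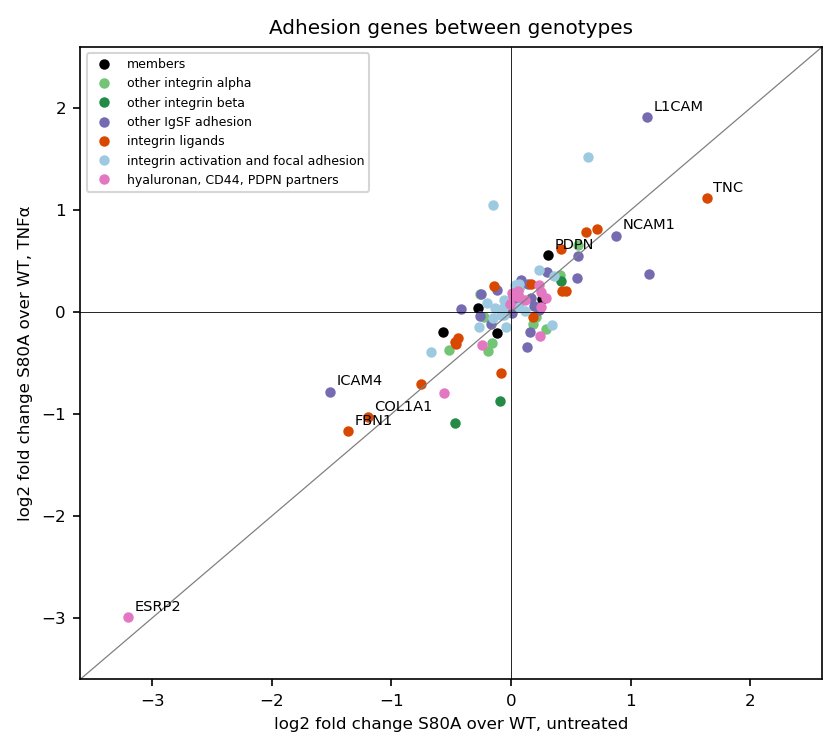
Log2 fold change of NFKB1S80A over WT in untreated cells (x axis) and after TNFα (y axis) for 98 of the 100 adhesion genes tested, coloured by list (members are the 8 genes described first; the grey line marks equal values). *VCAM1* and *NCAM2*, with at most 3 reads in every sample of a group, are left out; *ESRP2* lies at -3.20 and -2.99, and most genes lie near 0 on both axes.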

How the data were processed

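Single-end RNA-seq reads from 12 samples were aligned by the authors to GRCh38 with HISAT and counted per gene symbol with HTSeq-count; versions and counting options are not given in the sources used here. The authors deposited raw counts, without normalization, and lists of genes from their own DESeq2 comparisons with fold changes and p-values, which were not used here. Of 33121 genes, 28 whose symbols had become dates were left out (at most 0.233% of a sample's counts). Library totals ran from 15624878 to 20889577, and counts of a few reads are limited by counting error.

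Groups and replicates came from the sample titles, and all 12 columns matched 1 sample each; the description of TNFα-treated WT replicate 3 repeats the name of replicate 2, and its title was used, since their counts differ (chi-square per gene 14.3). The study describes the samples as independently generated triplicates. Counts were fitted in R 4.3.3 with edgeR 4.0.16 (filterByExpr with a minimum count of 10, TMM scaling, a mean for each of 4 groups over all 12 samples, quasi-likelihood F test). P-values were adjusted by Benjamini-Hochberg over the 14383 genes tested, with a threshold of 0.05. The SE is the log2 fold change divided by the square root of F. To normalise, each count was divided by its library's TMM-scaled size over the average of these sizes. Profiles were compared as log2 CPM with a prior count of 2. Lengths are of GENCODE v44 canonical transcripts and promoter windows are from RefSeq (GRCh38.p14), in which all 8 members were found. Ratios of summed counts have exact 95% intervals conditional on the total. The fit was tested on simulated counts.

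The members and gene lists were chosen with earlier results of these data known. Beyond the members and the genes beside *ICAM1*, the text names listed adhesion genes that passed the test and averaged 1 CPM or more, at most 6 that rose and 6 that fell per comparison, and the 5 genes most like *PDPN* and *ITGA5*, 1 of which is not reported here; *ICAM1* was too low for that. Genes named for their level alone were added. Alternatives were a replicate block, a fit of only the 6 samples compared, leaving out each sample in turn, DESeq2 1.42.0 in place of edgeR, its size factors or library totals in place of TMM, and either no filter or a floor of 10 counts in each sample. Tables and figures used Python 3.11.15, pandas 2.3.3 and scipy 1.17.1.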

Additional observations from a re-analysis of the deposited data

How the results depend on the processing

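Of the adhesion genes called with TNFα in WT cells, 3 became 1 with at least 10 counts in every sample and 1 to 4 without 1 sample, with 1 left without untreated WT replicate 2 or 3. In *NFKB1S80A* cells 5 became 3 with at least 10 counts in every sample, 2 with only the 6 samples compared and 4 to 7 without 1 sample. Between the genotypes, 15 untreated became 8 to 17 without 1 sample (9 and 8 without untreated WT replicates 1 and 2). The 15 after TNFα became 9 to 23 (9 without treated WT replicate 1, treated WT replicate 2 or treated *NFKB1S80A* replicate 1, and 23 without untreated *NFKB1S80A* replicate 2). Members called with TNFα in WT, 1, were 0 with at least 10 counts in every sample, and 0 with only the 6 samples, in both of which *VCAM1* is not tested, and 0 to 1 without 1 sample. In *NFKB1S80A* cells 2 became 1 with at least 10 counts in every sample. Between untreated genotypes 0 became 1 with DESeq2 and 0 to 1 without 1 sample, and after TNFα 1 became 2 with DESeq2 and 1 to 2 without 1 sample. Without 1 sample the log2 change of *ICAM5* with TNFα in *NFKB1S80A* cells ran from -0.16 to 0.29, and the genotype differences after TNFα of *ITGA5* from -0.094 to 0.13 and of *ITGAV* from -0.009 to 0.25, so their signs turned. The cause of these changes was not tested.

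Samples of the same number deviated together only in part, with a mean r of 0.118 over 18 pairs. Deviations were centred within each group, so the mean of the other pairs, -0.0589, largely follows from that value. Pairs of replicate 1 ran from 0.116 to 0.495, and those of replicates 2 and 3 from -0.0989 to 0.241. Of the 18 pairs 9 passed 0.1, and 6 of 12 samples were closest to their own number, so the numbers were not taken as pairs. With the replicate block, adhesion genes called were 4, 7, 21, 18 and 0 in the order of the 5 comparisons, and members called 1, 3, 2, 1 and 0. The members added were *ITGA5* with TNFα in *NFKB1S80A* cells (adjusted p 0.0198) and *PDPN* and *ICAM5* between untreated genotypes (0.0327 and 0.0475). Depth limits *ICAM1*, *CD44* and untreated *VCAM1*.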

Other observations

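*ITGB2*, the beta subunit of the leukocyte integrins that bind ICAM1, was named here after its values were seen. It had 23 reads in TNFα-treated *NFKB1S80A* replicate 2 and 0 to 3 reads in each of the other 11 samples, and did not pass the filter on low counts. *SELE*, the endothelial selectin induced with *VCAM1* in vessels, was likewise named after its values were seen. It had 0 reads in all 6 untreated samples, 0, 3 and 0 in TNFα-treated WT samples and 6, 4 and 3 in TNFα-treated *NFKB1S80A* samples, too few to be tested.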
